A study of Mus musculus with 6 samples.

Results

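The RGS genes Rgs1, Rgs2, Rgs3, Rgs10, Rgs14 and Rgs19 (6 in all) and the genes of 4 G protein alpha subunits, Gnai2, Gnai3, Gna13 and Gnaq, were followed in follicular B cells that lack myosin IIa. These 10 genes were chosen by name, with earlier results of these data known. They hold 12 of the 25017 entries and 10 of the 20458 gene names of the deposited table. The RNA came from 6 samples of C57BL/6 mice, 3 with the genotype CD23Cre+Myh9wt/fl and the other 3 with CD23Cre+Myh9fl/fl. The sort took B220+AA4.1-CD23+CD21lo cells. All groups carried Cre under the control of the CD23 promoter, which removes exon 3 of Myh9 from about the transitional stage of B cell maturation in the spleen. It does so on 1 allele in wt/fl cells and on both alleles in fl/fl cells. The wt/fl group is therefore haploinsufficient rather than wild-type, and both groups carry Cre. The labels give no age or batch. Each entry of the table has a single value per genotype, pooled by the authors over the replicates, in fragments scaled to transcript length and library size (FPKM). Hence none of the differences below has a replicate check, no spread or test is given, and the depth of each sample is unknown.

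Heterotrimeric G proteins carry the signal of chemokine and lipid receptors into the cell. The alpha subunit binds GTP when a receptor is engaged, separates from the beta and gamma subunits, and stays active until it hydrolyzes the GTP. RGS proteins speed up that hydrolysis and so shorten the signal. In B cells, Gi-coupled receptors such as Cxcr5 and Ccr7 guide cells within lymphoid organs, whereas G13 activates the RhoGEF Lsc, encoded by Arhgef1, and through it RhoA and the kinases Rock1 and Rock2, which in turn promote myosin II contraction.

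Rgs10 had the largest relative difference between the genotypes among the 10 genes, and it was lower in fl/fl. It was at 8.15 FPKM in wt/fl against 3.85 FPKM in fl/fl, 47.2% of the haploinsufficient level. In FPKM, fl/fl minus wt/fl, Gnai2 (16.2), Rgs19 (11.5) and Gna13 (−5.35) differed by more than Rgs10 (−4.30). Differences are given as log2 ratios of fl/fl over wt/fl after 1 was added to each FPKM, which understates the difference of low genes, and a ratio of at least 0.5 in size (1.41-fold) was called past the fold. Of the 10 genes, 9 had a mean of at least 1 FPKM over the genotypes. Among these, 1 was lower and 0 were higher by this rule, where 2.18% of all 9879 genes at this level were lower and 1.27% were higher. The median log2 ratio of the 9 was −0.063, beside 0.0026 for all 9879 genes. Myh9 itself, the deleted gene, was at 50.6 FPKM in wt/fl against 21.1 FPKM in fl/fl, 41.7% of the wt/fl level, with all exons counted and not exon 3 alone.

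**Figure D1:**
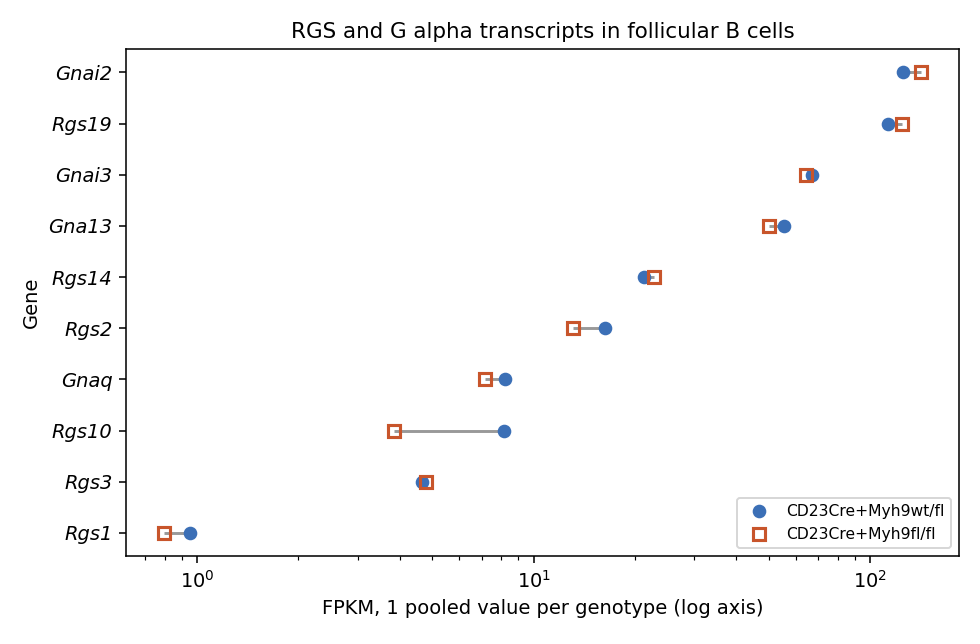
Pooled FPKM of the 10 genes on a log axis, with a filled circle for CD23Cre+Myh9wt/fl, an open square for CD23Cre+Myh9fl/fl and a line between them, and no error bars because each genotype has 1 pooled value. Rgs10 has the longest line, from 8.15 to 3.85 FPKM, and the symbols of the other genes lie close together or touch.

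The bases just upstream of an annotated start of Rgs10, and of Rgs2, the member with the next lowest ratio, are shown because these were the 2 members with the lowest fl/fl level relative to wt/fl. Both come from RefSeq on GRCm38.p6, minus strand, Rgs10 from chr7:128418174-128418422 and Rgs2 from chr1:144004162-144004399, and bases within annotated exons were left off. Capitals mark matches on either strand to GGGCGG (the GC box), to CCAAT (the CCAAT box), to TATAAA (the TATA box), to TGACGTCA (the cAMP response element), to its core TGACG, or to CACGTG (the E-box). The core lies within the full element.
Rgs10: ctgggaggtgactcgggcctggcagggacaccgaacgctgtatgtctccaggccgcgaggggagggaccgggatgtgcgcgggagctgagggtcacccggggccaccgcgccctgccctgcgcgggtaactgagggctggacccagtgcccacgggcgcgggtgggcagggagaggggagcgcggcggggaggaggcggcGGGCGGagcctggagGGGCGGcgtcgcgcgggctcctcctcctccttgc
Rgs2: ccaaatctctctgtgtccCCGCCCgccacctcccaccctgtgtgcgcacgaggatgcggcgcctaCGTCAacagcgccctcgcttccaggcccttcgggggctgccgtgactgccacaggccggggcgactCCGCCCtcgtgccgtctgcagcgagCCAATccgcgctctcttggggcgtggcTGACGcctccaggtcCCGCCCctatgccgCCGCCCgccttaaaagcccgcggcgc
Both stretches were rich in CpG, with 27 CG pairs in the 249 bases of Rgs10 and 28 in the 238 bases of Rgs2, where the medians over 32851 RefSeq promoter windows cut to the same lengths were 6 and 5. Rgs10 held 2 GC boxes and none of the other motifs. Rgs2 held 4 GC boxes, 1 CCAAT box and 2 cores of the cAMP response element, without the full element, a TATA box or an E-box. Of the windows cut to the length of Rgs2, 31.0% held a GC box, 32.9% a CCAAT box and 16.7% the core, while the TATA box, the full element and the E-box were found in 12.01%, 1.42% and 5.62%. Of those cut to the length of Rgs10, 32.6% held a GC box. A match is a description of the letters and not a binding site. Promoter windows were found by symbol for 7 of the 10 genes.

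Rgs10, a small RGS protein that acts on alpha subunits of the Gi family, is a single entry on chromosome 7 from 135517138 to 135561686 (mm9). Its log2 ratio of −0.92 was lower than that of all but 50 of the 9879 genes, and lay below that of 99.5% of them. Of the 1782 genes with a mean of 5 to 10 FPKM, among them Rgs10 at 6.00 FPKM, 1.91% were past the fold on the low side. Rgs10 made up 4.97% of the summed FPKM of the 6 RGS genes in wt/fl against 2.27% in fl/fl. In wt/fl it lay above Rgs3 and in fl/fl below it, the only change in the order of the 10 genes. In GENCODE M21, no exon of Rgs10 shares bases with an exon of another gene.

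Markers of other cell types that a sort could carry differed between the pooled libraries as well. The counts below stand beside 2.18% of all 9879 genes lower and 1.27% higher past the fold. Of 9 neutrophil markers above the level filter, 7 were past the fold on the low side. Cxcr2, at 5.99 FPKM in wt/fl against 4.96 FPKM in fl/fl, and Csf3r, at 2.32 and 1.51 FPKM, were lower but not past it. The summed level of all 13 measured went from 387 FPKM in wt/fl to 73.3 FPKM in fl/fl, led by S100a9, S100a8 and Camp. Most of that sum was S100a9, at 175 FPKM in wt/fl against 34.5 FPKM in fl/fl, and S100a8, at 145 and 25.8 FPKM. Elane and Mpo, the primary granule enzymes on that list, were under the level filter, at 0.119 and 0.0916 FPKM in wt/fl and listed at 0 in fl/fl. The 12 macrophage and monocyte markers, of which Cd68, Ly6c2 and C1qb were highest, summed to 19.6 and 17.6 FPKM, with 0 of 5 past the fold. The 12 T cell and natural killer cell markers, led by Lck, Nkg7 and Lat, summed to 40.0 and 32.9 FPKM, with 1 of 8 past the fold, Nkg7. Beta-s, a beta-globin, was the 1 erythroid marker above the level filter, and the 5 measured, next Alas2 and Slc4a1, summed to 55.5 and 7.65 FPKM. Of 4 plasma cell markers 2 were lower past the fold (Igj and Sdc1), and of 7 marginal zone markers 2 were (Plac8 and Cd9). All 4 plasma cell markers had negative log2 ratios, whereas 4 of the marginal zone markers had negative and 3 had positive ones. Irf4 and Xbp1 for plasma cells, and Dtx1 and Cd1d1 for marginal zone cells, were the other leading markers. Dtx1 was at 27.3 FPKM in wt/fl against 20.6 FPKM in fl/fl, and Cd1d1 at 15.1 and 15.7 FPKM. Of 3 germinal center markers, Bcl6, Fas and Mybl1, only Fas was past the fold, on the high side. No measured marker of the neutrophil, macrophage, T cell or erythroid lists was at 0 in both genotypes, and Tnfrsf17 of the plasma cell list was. The part of these cells in the level of Rgs10 was not tested, and in pooled RNA fewer cells of a type cannot be told apart from less RNA per cell. The 10 follicular B cell markers, led by Cd79b, Cd79a and Fcer2a, were all abundant and none was past the fold, with summed levels of 4848 FPKM in wt/fl against 5139 FPKM in fl/fl.

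Rgs19 was the most abundant RGS transcript. Its product, also called GAIP, acts on Gi family subunits. Its single entry on chromosome 2 from 181423127 to 181428629 (mm9) had 112.7 FPKM in wt/fl against 124 FPKM in fl/fl, a log2 ratio of 0.14. It supplied 68.7% of the summed FPKM of the 6 RGS genes in wt/fl against 73.3% in fl/fl, and 94.9% of the 9879 genes had a lower mean level. Rgs14, which combines an RGS domain with a motif that binds inactive Gi alpha, followed at 21.3 FPKM in wt/fl against 22.7 FPKM in fl/fl (chromosome 13 from 55471092 to 55486048), a log2 ratio of 0.09. The sum over the 6 genes was 164 FPKM in wt/fl against 169 FPKM in fl/fl, so the lower Rgs10 and Rgs2 were outweighed by Rgs19 within the sum.

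Rgs2, which acts mainly on Gq, was at 16.3 FPKM in wt/fl against 13.1 FPKM in fl/fl, a log2 ratio of −0.30, and 11.9% of the 9879 genes differed by as much or more in either direction. Rgs1, known as a brake on chemokine responses of activated B cells, stood at 0.952 FPKM in wt/fl against 0.797 FPKM in fl/fl and was the member under the level filter. Rgs1 and Rgs2 are both inducible genes. Beside them, 23 immediate-early genes, led by Zfp36, Ier5 and Klf2, gave a median log2 ratio of −0.033 over the 20 above the filter. These went both ways, 9 higher and 11 lower in fl/fl, with ratios from −0.84 to 0.36. Only 1 was past the fold, beside 2.18% of all 9879 genes lower and 1.27% higher. This was Dusp1, at 15.3 FPKM in wt/fl against 8.12 FPKM in fl/fl.

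Rgs1 and Rgs2 share a cluster on chromosome 1 with other RGS genes, which spans 776 kb in the table from the start of Rgs2 at 145846467 to the end of Rgs18 at 146622551 (mm9). It held 4 gene names, all of them RGS genes. Rgs13, a germinal center gene, lay at 0.192 FPKM in wt/fl against 0.462 FPKM in fl/fl, and Rgs18, known from platelets and myeloid cells, at 2.57 and 3.73 FPKM, a log2 ratio of 0.41. In the cluster, Rgs2 and Rgs1 were thus lower and Rgs13 and Rgs18 higher in fl/fl, none of them past the fold. Of these, Rgs1 and Rgs13 lay under the level filter. With 0.1 added to each FPKM in place of 1, the log2 ratio of Rgs18 was 0.52. Over the 10 platelet and megakaryocyte markers, led by Itgb3, Ppbp and Gp1ba, the summed level was 19.0 FPKM in wt/fl against 20.9 FPKM in fl/fl. Most of that sum was Itgb3, at 16.4 FPKM in wt/fl against 17.0 FPKM in fl/fl, and 8 of the markers were under the level filter. Those 8 went both ways, with Pf4 at 0.168 FPKM in wt/fl against 0.880 FPKM in fl/fl and Gp9 at 0.105 and 0 FPKM. The part of platelets in the level of Rgs18 was not tested.

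Rgs3, which acts on Gi and Gq subunits, was the only member with more than 1 entry. The table lists 3 coding sequences for it on chromosome 4 from 62220880 to 62364053 (mm9). One was at 2.84 FPKM in wt/fl against 2.91 FPKM in fl/fl, another at 1.82 and 1.88 FPKM, and the last was listed at 0 in both. The more abundant coding sequence made up 60.9% of Rgs3 in wt/fl against 60.8% in fl/fl. The listed shares were thus nearly the same, but no precision can be given for them from 1 pooled value per genotype. Summed, Rgs3 was at 4.66 and 4.79 FPKM, a log2 ratio of 0.03.

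Of the other 18 RGS and RGS-domain genes listed, 17 were in the table and 2 passed the level filter, Rgs18 and Axin1, a scaffold of the Wnt pathway, at 16.4 and 17.1 FPKM. Neither was past the fold. Rgs11, the next by level, was at 0.424 and 0.540 FPKM, and Rgs16 was listed at 0 in wt/fl and at 0.0524 FPKM in fl/fl. Rgs21 was not analysed here. Transcripts of RGS genes in these cells therefore came mainly from a few genes, and the 20 numbered RGS genes of the table summed to 168 FPKM in wt/fl against 175 FPKM in fl/fl, most of it Rgs19.

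**Figure D2:**
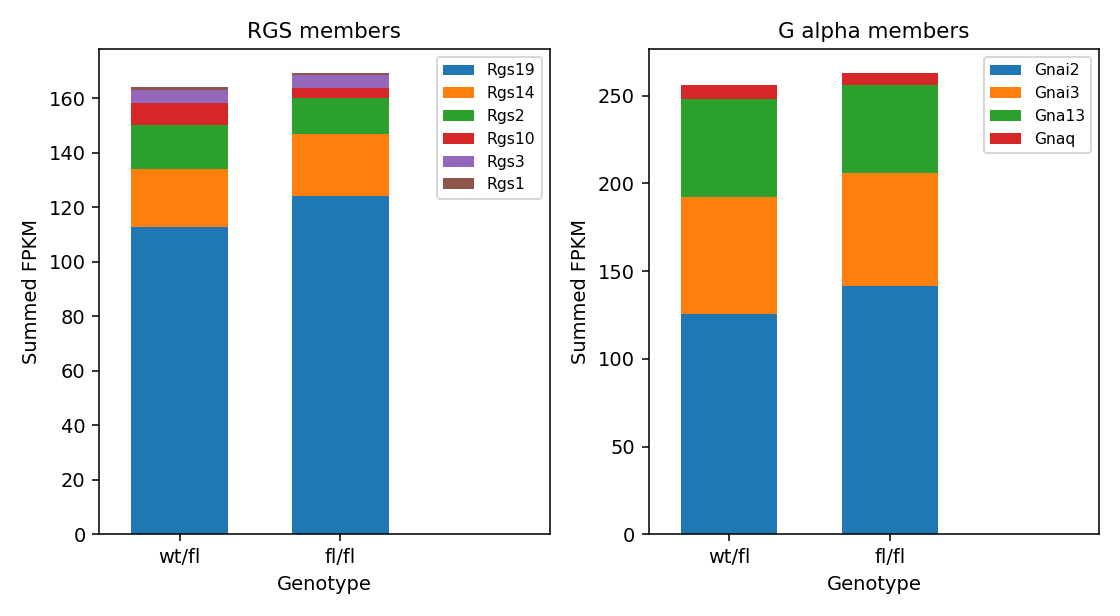
Stacked bars of pooled FPKM, starting at 0, for the 6 RGS members (left) and the 4 G alpha members (right) in each genotype, 1 color per gene. The RGS bars reach 164 and 169 FPKM and are mostly Rgs19, and the share of Rgs10 is smaller in fl/fl.

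The alpha subunit genes differed little. Gnai2, the main Gi subunit of lymphocytes (chromosome 9 from 107516468 to 107537673, mm9), was the most abundant of the 10 genes, at 125 FPKM in wt/fl against 142 FPKM in fl/fl, a log2 ratio of 0.17. Gnai3, its close relative, was at 67.2 and 64.3 FPKM (chromosome 3 from 107910216 to 107949032), a log2 ratio of −0.06. The level of Gnai2 was thus 1.86 times that of Gnai3 in wt/fl against 2.20 times in fl/fl. Together with Gnai1, at under 0.1 FPKM, the Gi genes summed to 193 FPKM in wt/fl against 206 FPKM in fl/fl, and Gnai2 supplied 65.1% and 68.7% of it.

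Gna13, whose product activates RhoGEFs and RhoA, was at 55.5 FPKM in wt/fl against 50.2 FPKM in fl/fl (chromosome 11 from 109216091 to 109262683, mm9), a log2 ratio of −0.14. An antisense gene, Gm11696, shares 2.35% of the exon bases of Gna13 in GENCODE M21, and strand use in the counting is not given in the sources used here. Gnaq, the alpha subunit that activates phospholipase C beta, was at 8.19 and 7.15 FPKM (chromosome 19 from 16207320 to 16461943), a log2 ratio of −0.17. Ratios at least as far from 0 as those of Gnai2, Gna13 and Gnaq were found in 30.2%, 38.7% and 30.6% of the 9879 genes.

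**Figure D3:**
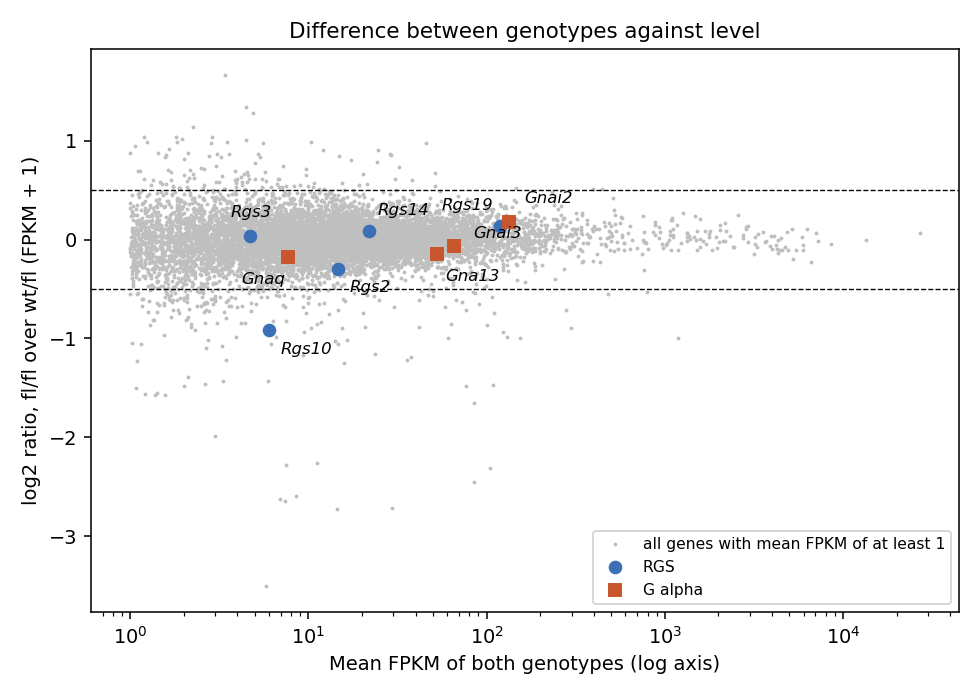
Log2 ratio of fl/fl over wt/fl (FPKM + 1) against the mean FPKM on a log axis for 9879 genes (gray), with RGS members as circles and G alpha members as squares and dashed lines at 0.5 in size. Rgs10 lies below the lower line at −0.92, and the other 8 members plotted lie between the lines.

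Partner genes of the alpha subunits were compared by lists of their roles. With 2.18% of all 9879 genes lower and 1.27% higher past the fold, a count of 0 in a short list is close to the share over all genes. Among 12 other alpha subunit genes, 5 were above the level filter and 0 were past the fold, with Gnas (Gs alpha) at 47.6 FPKM in wt/fl against 44.4 FPKM in fl/fl, Gnal, its relative, at 7.64 and 9.30 FPKM, and Gna12 at 6.55 and 5.20 FPKM. Gnas has 6 entries, which were summed. Of 17 beta and gamma subunit genes, 8 were above the filter and 0 past the fold, with Gng5 at 214 and 205 FPKM, Gngt2 at 136 and 112 FPKM, and Gng10 at 114 and 97.8 FPKM. The medians of these lists were −0.099 and −0.13, and both lists held genes that were higher and genes that were lower.

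Of 25 receptors of B cells that couple to G proteins, 20 were above the level filter, 2 were lower past the fold and 1 was higher, beside the 2.18% and 1.27% of all genes. Cxcr4 was known to differ when the list was written. Cxcr4, the Gi-coupled receptor for Cxcl12, was at 113 FPKM in wt/fl against 39.7 FPKM in fl/fl, 35.1% of the haploinsufficient level. Gpr171 was at 163 and 84.8 FPKM, 51.9% of it. Hrh2, the H2 histamine receptor, was at 2.62 and 4.17 FPKM, a log2 ratio of 0.51 that lies just past the fold. The follicle-homing receptor Cxcr5 was at 180 and 178 FPKM, Gpr18 at 154 and 173 FPKM, Ccr7 at 146 and 118 FPKM, and S1pr1, the sphingosine-1-phosphate receptor for exit from lymphoid organs, at 98.0 and 75.2 FPKM. The median of the 20 receptors was −0.028. S1pr2, a receptor that signals through G13, was at 0.662 and 0.214 FPKM, under the filter.

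The list of effectors and RhoGEFs held 0 of 16 genes past the fold, beside the 2.18% lower and 1.27% higher of all genes. Its ratios lay between −0.27 and 0.15. In the path from G13 to myosin II, Arhgef1 was at 209.4 FPKM in wt/fl against 208.5 FPKM in fl/fl, summed over 4 entries. Rhoa was at 227 and 235 FPKM, Rock1 at 46.8 and 49.1 FPKM, and Rock2 at 49.2 and 40.6 FPKM. Dock2, a Rac activator that acts in lymphocyte migration, was at 125 and 128 FPKM. The list of receptor kinases, arrestins and other G protein regulators held 0 of 19 genes past the fold, beside the same shares of all genes. Its ratios lay between −0.16 and 0.25. Gnb2l1 (also called Rack1) was the most abundant at 1746 and 1858 FPKM, Adrbk1 (Grk2) was at 80.8 and 77.7 FPKM, and Grk6 at 49.2 and 51.8 FPKM.

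**Figure D4:**
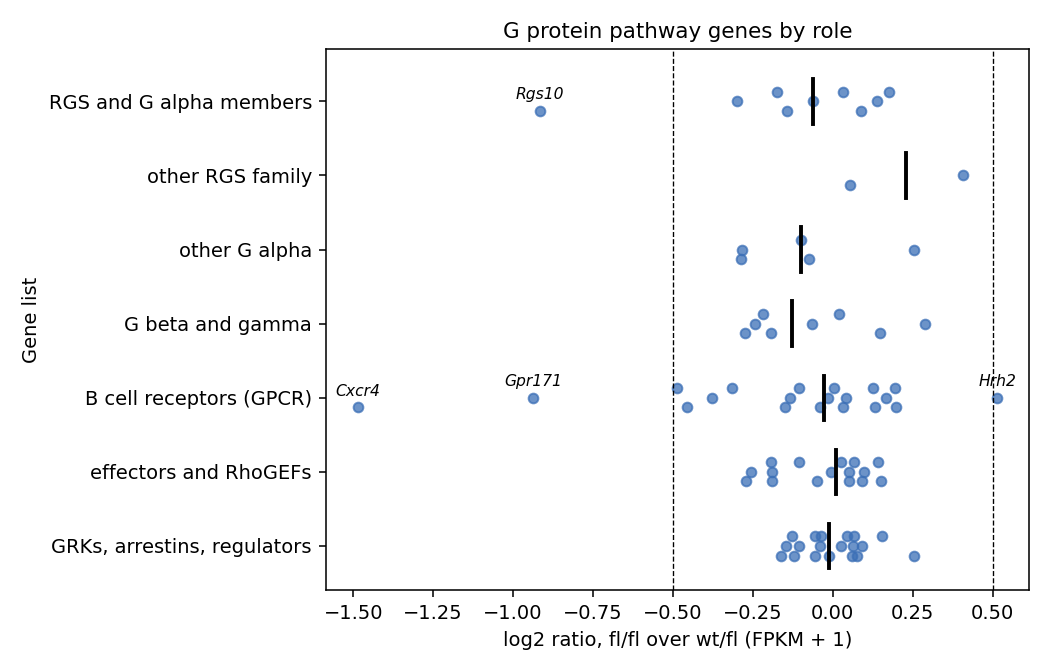
Log2 ratio of fl/fl over wt/fl (FPKM + 1) for each gene with a mean of at least 1 FPKM, by list, with a black bar at the median of each list and dashed lines at 0.5 in size. Rgs10, Cxcr4 and Gpr171 lie past the lower line and Hrh2 just past the upper line.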

How the data were processed

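RNA of sorted follicular B cells was amplified with the Ovation RNA-Seq system V2 before libraries were made. The authors deposited 1 table in the layout of Cuffdiff, with 1 FPKM value per genotype, pooled over its samples, for each coding sequence of a gene. The submitters' processing notes name Bowtie, TopHat and Cufflinks, without versions, and the builds mm10 and GRCm38. Positions in the table overlapped the GRCm38 position of the same symbol for 12.7% of 18853 genes. Names ending in random, a form that mm9 has but that does not settle the build, hold 118 entries. All positions are therefore given as mm9 and were not converted. That build is inferred, since positions were not compared with an mm9 annotation. The table also holds the authors' own fold changes, test statistics, p-values and q-values, which were not used.

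FPKM was summed per gene symbol, and genes were kept where the mean over the genotypes reached 1 FPKM. Python 3.11.15 and pandas 2.3.3 were used, and the computation was tested on simulated data. With 1 value per genotype no model, permutation test or interval was possible. The 10 genes and the gene lists were chosen with earlier results of these data known. Named in the text were the 10 genes, the genes of each pathway list that were past the fold, the 3 most abundant of each list, and Rgs13, Rgs16, Rgs18, Rgs21, Cxcr4, Cxcr5, Ccr7, S1pr1, Arhgef1 and Myh9. Rock1, Rock2, S1pr2, Gnai1, Gm11696, Elane, Mpo, Cxcr2, Csf3r, Pf4, Gp9, Tnfrsf17 and the marker genes past the fold were named after their values were seen. One marker of the lists is not reported here. Genes of like pattern were not sought, since 2 values give no pattern.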

Additional observations from a re-analysis of the deposited data

How the results depend on the processing

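The log2 ratio of Rgs10 lay between −1.06 and −0.92 over the alternatives for pseudocount, level filter, scaling and entry. The lowest came with a pseudocount of 0.1. Rgs10 has 1 entry and a level filter does not enter its ratio, so the filter and entry settings could not change it. A pseudocount cannot change the direction of a ratio, and every alternative uses the same pooled values. The ratios of the 8 other members above the level filter moved by less than 0.1 with their directions kept, Rgs3 without a value at a mean of at least 5 FPKM. Rgs1, under the filter, was not recomputed with another pseudocount, scaling or entry. With a fold of 1 on the log2 scale, 0 members, 1 receptor (Cxcr4) and 49 of all genes were past the fold. With a fold of 0.25 these were 2 of 9 members (Rgs10 and Rgs2), both lower, and 7 of 20 receptors, 6 lower and 1 higher. Of all 9879 genes, 1706 were past it, 909 lower and 797 higher. The same fold took in 1 of 2 other RGS genes, 3 of 5 other alpha, 2 of 8 beta and gamma, 2 of 16 effector and 1 of 19 regulator genes. A pseudocount of 0.1 gave 584 genes past the fold in place of 340, 1 of them Rgs18. A pseudocount of 0.1 also gave 4 receptors, 3 of them lower. A mean of at least 5 FPKM gave 147 genes and 2 receptors, both lower, Hrh2 being left out, and without a filter on level 1 beta or gamma gene was past the fold. No paired analysis was possible because the table holds 1 pooled value per genotype, and for the same reason no replicate was left out. Depth per sample is unknown, so no precision can be given for low values such as those of Rgs1.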
